A study of Sthenoteuthis oualaniensis with 24 samples.

Results

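Expression in the intestine of mature dwarf form (DF) individuals was compared with that in immature DF individuals of Sthenoteuthis oualaniensis (SA), the purpleback flying squid. Of the 24 libraries in the series, 6 were used for this comparison, 3 of mature intestine (DDI_1, DDI_2 and DDI_3) and 3 of immature intestine (DUI_1, DUI_2 and DUI_3). Mature and immature DF stomach (DDS and DUS, 3 libraries each) served to show how far the same unigenes differed in a neighbouring tissue. The DUS libraries also gave an estimate of the value of a single read, on which the treatment of DDI_1 and DDI_2 rested. Levels are in FPKM, the fragments assigned to a unigene scaled to its length and to the library's total. Unigenes were kept if they averaged at least 0.5 FPKM over the 6 intestine libraries, which left 54695 of 68627.

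The DF is the small form of the species, which lacks the dorsal light organ of the medium form, and both stages came from that form alone. Maturity followed the gonad stage, with stages III to V taken as mature and stages I and II as immature. The animals were caught at sea, so stage cannot be told apart from body size, age or recent feeding, and no sex is stated for the animals behind each library. Unigenes were assembled without a genome, and no gene name was paired with them in the tables used, so they are described by level and pattern, and the tissue label could not be checked against marker genes.

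In squids, food is broken up in the muscular, cuticle-lined stomach with enzymes from the digestive gland, nutrients are taken up mainly in the caecum and also in the intestine, and residues leave through the intestine. Sexual maturation places a heavy demand for nutrients on the animal, because the gonads grow on food and on stored reserves. A whole-tissue library mixes epithelium, muscle, blood cells and gland cells, so fewer cells of a type and less RNA per cell cannot be told apart.

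The libraries differed in depth as read from the smallest steps in the FPKM values. Against DUI_2, the relative depth was 1.11, 0.949 and 0.805 in DDI_1, DDI_2 and DDI_3, and 1.01, 1.00 and 1.01 in DUI_1, DUI_2 and DUI_3. The value of a single read was estimated from the immature stomach libraries and scaled by relative depth. Over the 11850 mostly low unigenes that gave one, it had a median of 1.11 to 1.53 FPKM in the mature and 1.22 to 1.24 FPKM in the immature libraries. If this estimate holds, values near this level rested on few reads. It may be too large, since closely matching stomach values could be taken for 1 read each. The mature libraries listed 41736 to 45047 unigenes above 0, and the immature libraries 46448 to 46728, with the fewest in DDI_3, the shallowest library.

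DDI_1 and DDI_2 were more alike than the estimated sampling of reads allows. Between 20 and 50 FPKM they differed by a median of 6.42%, whereas DDI_3 differed from them by 10.96% and 11.4%, and the immature libraries from each other by 8.96% to 9.13%. The variance of their difference was 0.342 of that from counting reads, whereas it was 1.05 and 0.866 for the pairs of DDI_3 with DDI_1 and DDI_2. These 3 ratios rested on only 412, 369 and 326 unigenes, those with a mean of 10 to 1000 estimated reads. DDI_1 and DDI_2 were therefore counted as 1 sample by their mean, which gave 2 mature samples against 3 immature samples. The 3 immature pairs lay between 0.823 and 0.886, over 402 to 414 unigenes, and stayed separate. These ratios use the read value estimated from immature stomach. That value had no upper limit, and the ratios would be too small if it were too large. At 200 FPKM or more, the coefficient of variation had a median of 2.33% over the mature libraries and 2.14% over the immature libraries. Only if the estimated read value holds is the spread close to read counting. The spread measures the repeatability of these libraries. It may not contain the differences between animals, so the p-values refer to these libraries only.

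In the limma fit on log2(FPKM + 0.5), 4378 of 54695 unigenes (8.00%) differed at least 2-fold with a Benjamini-Hochberg adjusted p under 0.05. Of these differentially expressed unigenes, 2151 (3.93%) were higher and 2227 (4.07%) lower in mature intestine. An adjusted p under 0.05 at any fold was reached by 6365 unigenes, and an unadjusted p under 0.05 by 14778. The numbers called higher and lower were close over all libraries, but not without DDI_3 (3981 higher and 1438 lower). Unigenes called higher held 6.88% to 7.03% of the summed FPKM in mature libraries, against 1.91% to 1.93% in immature libraries. Those called lower held 1.19% to 1.20% of it in mature libraries, against 4.20% to 4.25% in immature libraries. Unigenes that were not called held 91.5% to 91.7% in mature and 93.4% in immature intestine.

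The count of calls depended on single libraries of both stages. Without DUI_1, DUI_2 or DUI_3, 1630, 1824 and 1982 unigenes passed, whereas 5419 passed without DDI_3, when the mature stage was a single merged sample assumed to vary as the immature ones did. Of the 4378 calls, 2447 were shared with those made without DDI_3. With DDI_1 and DDI_2 entered as separate libraries the count was 6685. No unigene called both over all libraries and under one of these settings changed its direction.

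The size of the difference fell with the level of the unigene, and its direction shifted (the bar chart of percentages by level). Between 0.5 and 2 FPKM, 20.6% of 25624 unigenes had group means at least 2-fold higher and 31.7% at least 2-fold lower in mature intestine, by size alone. Between 2 and 10 FPKM the shares were 16.7% higher and 14.4% lower, over 18653 unigenes. In the lowest class, 2-fold lower unigenes outnumbered 2-fold higher ones. Values there rested on few reads if the estimated read value holds, and the mature libraries listed fewer unigenes above 0. The median log2 ratio was −0.28 in the lowest class and −0.06 between 2 and 10 FPKM, and it was 0.00, −0.01 and −0.08 in the classes of 10 to 50, 50 to 200 and at least 200 FPKM. Between 10 and 50 FPKM, 8.81% were higher and 4.55% lower, over 8219 unigenes. From 50 to 200 FPKM (1775 unigenes), 7.49% were higher and 3.49% lower, and above that (424 unigenes), 4.01% were higher and 2.83% lower. The corresponding shares over all tested unigenes were 16.9% and 20.6%.

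**Figure D1:**
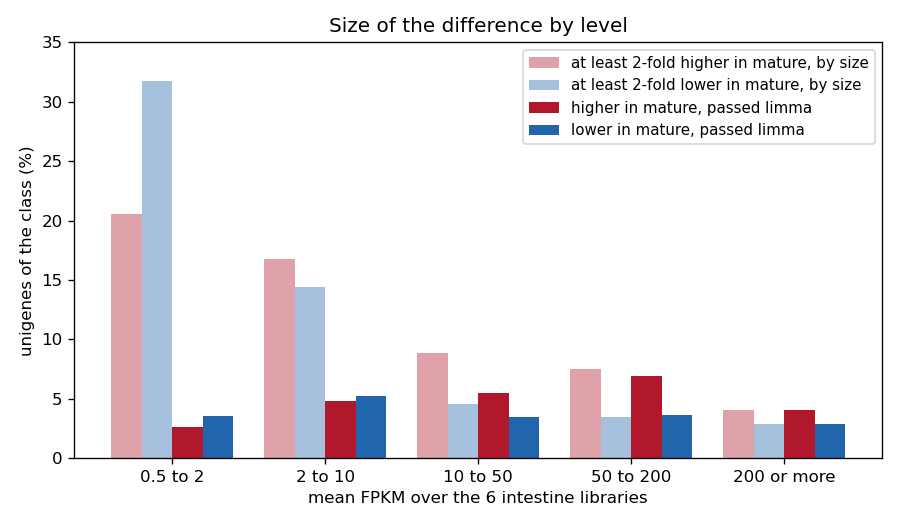
Percentage of unigenes (vertical axis) at least 2-fold higher or lower in mature (DDI) than immature (DUI) intestine, by class of mean FPKM over the 6 libraries (horizontal axis). Pale bars count by the ratio of group means. Dark bars count unigenes called by limma, whose fold change uses slightly different means, so they are not strictly a part of the pale bars. Pale bars shrink as the level rises, from 31.7% lower at 0.5 to 2 FPKM down to 2.83% at 200 FPKM or more.

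Limma called few of the 2-fold differences in the lowest class, whereas at high level its counts were close to those by size. In the class of 0.5 to 2 FPKM, 666 unigenes were called higher and 898 lower, against 5268 and 8132 by size. Between 2 and 10 FPKM, 895 were called higher and 970 lower, against 3119 and 2690 by size. At 50 to 200 FPKM, 123 were called higher and 64 lower, against 133 and 62 by size, the 2 counts using slightly different means. At 200 FPKM or more, the 17 higher and 12 lower unigenes were the same number by either count. The median absolute difference declined from 1.08 on the log2 scale at 0.5 to 2 FPKM to 0.30 at 200 FPKM or more. In this top class, 80.0% of unigenes had means within 1.5-fold of each other.

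Among the 2199 unigenes averaging 50 FPKM or more, 216 were called, 140 (6.37%) higher and 76 (3.46%) lower in mature intestine. These unigenes held 64.3% to 64.5% of the summed FPKM in mature libraries and 64.7% in immature libraries. By size, 40 were at least 4-fold higher and 17 at least 4-fold lower, and 13 were at least 16-fold higher and 4 at least 16-fold lower. At each of these sizes more unigenes were higher than lower in mature intestine (the scatter of mature against immature means). Without DDI_3, which left a single mature sample, the numbers called higher and lower were close, so the excess of higher calls depended on that library. Over the omissions of any other library the counts ran between 117 and 128 higher and between 58 and 88 lower.

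**Figure D2:**
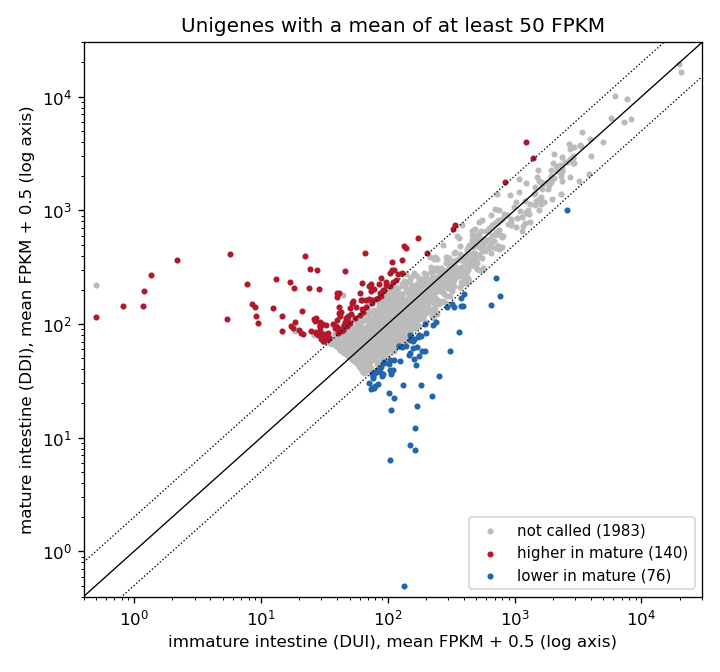
Mean FPKM + 0.5 in mature intestine (DDI, vertical log axis) against immature intestine (DUI, horizontal log axis) for the 2199 unigenes averaging 50 FPKM or more. Red points are the 140 unigenes called higher in mature, blue the 76 called lower and grey the rest; the solid line marks equal values and the dotted lines a 2-fold difference.

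Separation of the libraries and size of the difference parted ways at high level. The 3 mature libraries lay wholly above or wholly below the 3 immature libraries for 19713 of all tested unigenes (36.0%), with 22.7% in the class of 0.5 to 2 FPKM but 87.3% among those of 200 FPKM or more. At 50 FPKM or more it was 1640 of 2199 (74.6%), of which 1417 differed by less than 2-fold. Most abundant unigenes therefore had a small difference that was larger than the spread between libraries. These counts take DDI_1 and DDI_2 as separate libraries and were not repeated after rescaling. Scaling by median of ratios moved the median log2 fold change of all unigenes by 0.08, and its part in such small differences was not tested.

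All of the 10 most abundant, each with a mean of at least 4073 FPKM, had libraries that did not overlap, 5 of them higher and 5 lower in mature intestine. Their differences ran only from −0.38 to 0.70 on the log2 scale, so none reached 2-fold. Among the 100 most abundant, with means of at least 871 FPKM, 92 did not overlap, 42 higher and 50 lower. The differences of the 100 ran from −1.35 to 1.72, and 3 were at least 2-fold higher and 1 at least 2-fold lower. The most abundant unigene of each library held 2.32% to 2.39% of the summed FPKM in mature and 2.49% to 2.53% in immature intestine. The 100 highest held 30.9% to 31.2% and 31.1% to 31.2% of it, and these ranges overlapped.

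A few abundant unigenes were near the floor at one stage. With at least 100 FPKM in each library of one stage and under 10 FPKM in each library of the other, 11 unigenes were on in mature and 3 on in immature intestine (limits chosen after the values were seen). The 11 ranged between 103 and 417 FPKM in mature libraries and between 0 and 9.28 FPKM in immature libraries. The 3 ranged between 0 and 9.58 FPKM in mature libraries and between 111 and 175 FPKM in immature libraries. Of the 11, 6 were under 5 FPKM in all 6 stomach libraries, as was 1 of the 3. The stomach values of the 11 reached at most 76.5 FPKM in mature and 46.4 FPKM in immature animals, and those of the 3 at most 7.42 and 637 FPKM.

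Examples of each direction are given with their libraries, taken as the largest log2 fold changes among unigenes above 0 in every intestine library (the plot of values by library). CL37212Contig1 was at 261, 275 and 278 FPKM in DDI_1 to DDI_3, against 0.487, 1.11 and 0.978 FPKM in DUI_1 to DUI_3. It averaged 272.8 ± 7.30 FPKM in mature intestine (SD, n = 2) and 0.860 ± 0.330 FPKM in immature intestine (SD, n = 3). Its log2 fold change was 7.68 ± 0.25 (SE, adjusted p = 6.10e-04 by limma with Benjamini-Hochberg adjustment). All mature libraries were high and all immature libraries at about 1 FPKM or less. In stomach it was at 0, 0.764 and 0.321 FPKM in mature and 0.201, 0.163 and 0.443 FPKM in immature animals, so this unigene was abundant in 1 of the 4 groups only.

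CL39669Contig1 was at 354, 371 and 374 FPKM in DDI_1 to DDI_3, against 1.99, 1.52 and 1.49 FPKM in DUI_1 to DUI_3. Its log2 fold change was 7.42 ± 0.14 (SE, limma adjusted p = 2.45e-04). Stomach values were 1.87, 3.01 and 2.83 FPKM in mature animals and 1.41, 2.96 and 2.14 FPKM in immature animals. It shared with CL37212Contig1 the restriction of high values to mature intestine.

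CL592Contig1 fell in mature intestine, with 7.40, 7.78 and 2.22 FPKM in DDI_1 to DDI_3, against 94.1, 109 and 106 FPKM in DUI_1 to DUI_3. Its log2 fold change was −4.46 ± 0.47 (SE, limma adjusted p = 0.00991), and DDI_3 lay below the other mature libraries. Without DUI_1, DUI_2 or DUI_3 the limma adjusted p was 0.0584, 0.0594 and 0.0570. The log2 fold change was then −4.52, −4.42 and −4.44, in fits of 2 samples against 2. In stomach its highest value was 2.42 FPKM in mature and 3.65 FPKM in immature animals.

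CL11102Contig1 fell in mature intestine as well, with 5.18, 9.58 and 6.97 FPKM in DDI_1 to DDI_3, against 175, 161 and 151 FPKM in DUI_1 to DUI_3. Its log2 fold change was −4.41 ± 0.08 (SE, limma adjusted p = 2.45e-04). It was listed at 0 in all mature stomach libraries and in 2 of the 3 immature ones, with 0.321 FPKM in the other. Every value above 1 FPKM of this unigene was thus in intestine, and the mature and immature libraries did not overlap.

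**Figure D3:**
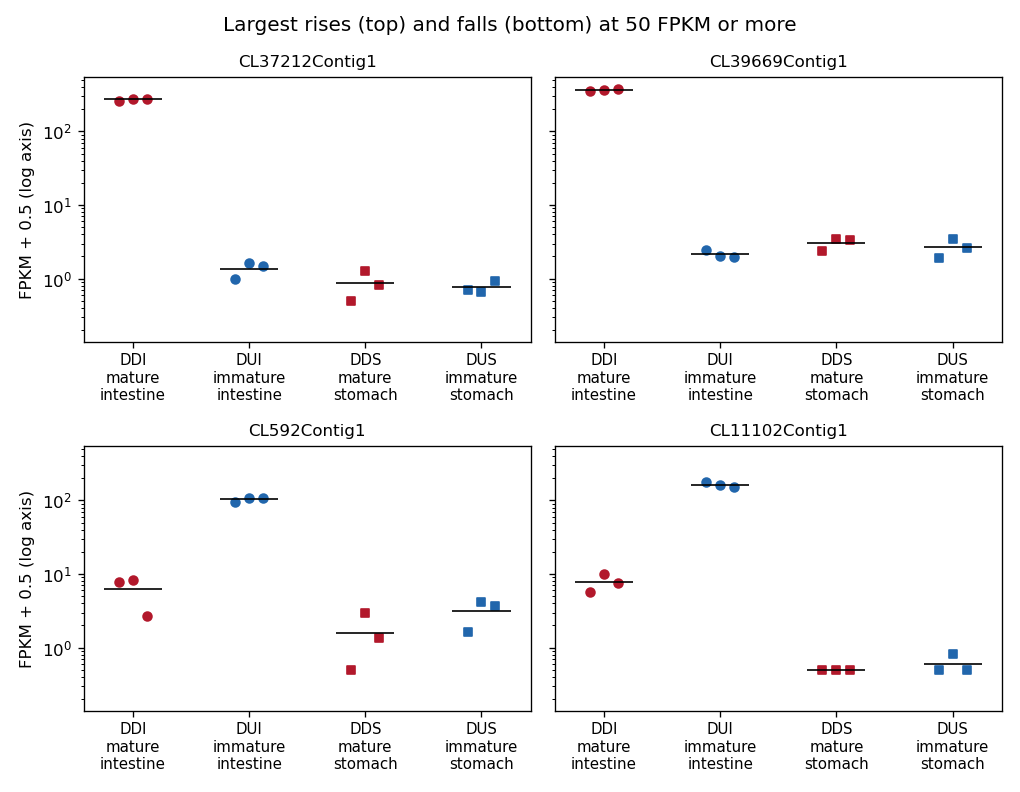
FPKM + 0.5 (vertical log axis) of 4 unigenes in each library of mature intestine (DDI), immature intestine (DUI), mature stomach (DDS) and immature stomach (DUS), with points for libraries and a line at the mean of each group. CL37212Contig1 and CL39669Contig1 are above 200 FPKM only in DDI; CL592Contig1 and CL11102Contig1 are above 90 FPKM only in DUI.

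The abundant unigenes called higher and lower were then looked up in stomach. Of those higher in mature intestine, 69 (49.3%) were at 50 FPKM or more in all 6 stomach libraries, near the 1221 (55.5%) of all 2199. Of those lower in mature intestine, 13 (17.1%) were at this level. Under 5 FPKM in every stomach library were 12 (8.57%) of those called higher and 7 (9.21%) of those called lower, beside 63 (2.86%) of all 2199. These shares describe the lists, and the difference between them was not tested.

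The stomach, taken from the same animals per the methods, differed in part in the same direction (the scatter of intestine against stomach ratios). Over the 2199 unigenes, 91 (4.14%) were at least 2-fold higher and 264 (12%) at least 2-fold lower in mature than in immature stomach by size. Of the 140 called higher in mature intestine, 30 (21.4%) were also at least 2-fold higher in mature stomach, 9 (6.43%) were at least 2-fold lower, and 101 differed by less. Of the 76 called lower, 32 (42.1%) were also at least 2-fold lower in mature stomach, 3 (3.95%) were at least 2-fold higher, and 41 differed by less. The median stomach log2 ratio was 0.52 for the unigenes called higher and −0.85 for those called lower, beside −0.04 for all 2199. Mature stomach libraries listed far fewer unigenes above 0 (21787 to 30090) than immature ones (37303 to 43995), which bears on how often a value was low there.

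**Figure D4:**
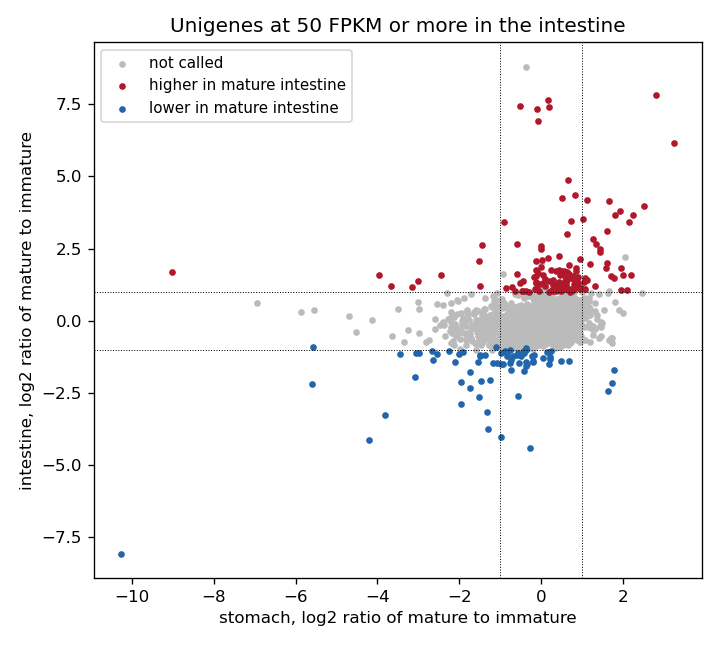
Log2 ratio of mature to immature means in intestine (vertical axis) against that in stomach (horizontal axis) for the 2199 unigenes at 50 FPKM or more in the intestine. Red points were called higher and blue points lower in mature intestine, grey points were not called, and dotted lines mark 2-fold; the median stomach ratio is 0.52 for red and −0.85 for blue points.

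Whether the mature-to-immature ratio differed between intestine and stomach was tested by the interaction of tissue and stage over the 12 DF libraries. The test compares signed ratios, so a unigene that was lower in mature stomach alone also counts as having a larger ratio in intestine. Of 47743 unigenes tested, 6139 (12.9%) passed with a limma adjusted p under 0.05 and at least a 2-fold difference of ratios, 4814 of them with a larger mature-to-immature ratio in intestine and 1325 with a smaller one. At a mean of 50 FPKM or more over the 12 libraries, 353 passed, 218 with a larger and 135 with a smaller ratio in intestine. No share of those tested at this level is given. After quantile normalization 4091 passed in all, of which 2995 had a larger ratio in intestine, and 339 at 50 FPKM or more.

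Of the 140 abundant unigenes called higher in mature intestine, 76 (54.3%) also passed the interaction in that direction and 1 (0.714%) in the other. Of the 76 called lower, 19 (25.0%) passed in that direction and 9 (11.8%) in the other, where the stomach ratio was lower still. Over all 2199, the shares were 12.9% in the direction of the intestine difference and 4.09% in the other. The lists were chosen by the intestine ratio, which also enters the interaction, so nothing is read from these shares. The intestine log2 fold change less that in stomach was 7.60 for CL37212Contig1, 7.19 for CL39669Contig1, −4.17 for CL11102Contig1 and −3.25 for CL592Contig1. These values are a description, since the 4 unigenes were also chosen by their intestine difference.

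Unigenes far more abundant in intestine than in stomach changed in both directions. There were 127 with an intestine mean of at least 50 FPKM and at least 10 times the stomach mean, a list defined after the values were seen. Of these, 21 (16.5%) were called higher and 23 (18.1%) lower in mature intestine, beside 6.37% and 3.46% of all unigenes at 50 FPKM or more. The list as a whole summed to 25749 to 26444 FPKM in mature libraries, against 29032 to 29093 FPKM in immature libraries. The sum is weighted to the most abundant members, and the median log2 ratio of the list was 0.02. Its median absolute log2 ratio was 0.50, and 10 were at least 4-fold higher and 6 at least 4-fold lower.

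The opposite list, with a stomach mean of at least 50 FPKM and at least 10 times the intestine mean, bears on stray stomach tissue in the intestine samples. Its 121 unigenes summed to 1960 to 2023 FPKM in mature intestine, against 1729 to 1775 FPKM in immature intestine, and to 121154 to 129000 FPKM in mature stomach, against 106255 to 108065 FPKM in immature stomach. In intestine, 15 (12.4%) were called higher and 13 (10.7%) lower, beside 3.93% and 4.07% of all unigenes tested, and the median log2 ratio was 0.15. The part of such tissue in the results above was not tested.

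Unigenes listed at 0 in every library of one stage were also counted by themselves, since their ratio rests on the added 0.5 FPKM. At a mean of at least 10 FPKM in the other stage, 124 were listed only in mature intestine and 61 only in immature intestine. These stayed in the limma fit, and 113 of the 124 and 59 of the 61 were among the 4378 called unigenes. They were chosen by their stage difference, so nothing is read from those shares. Of the 124, 112 were above 0 in all 3 mature libraries, and of the 61, 59 were above 0 in all 3 immature libraries. Most of them were low, with a median mean of 14.0 FPKM for the mature and 13.2 FPKM for the immature set, and only 4 of each reached 50 FPKM. With a minimum of 5 FPKM the sets held 533 and 313 unigenes.

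A listed 0 was not always a low level. The unigene with the highest mean of the mature set was at 666 FPKM in DDI_1 and listed at 0 in DDI_2 and DDI_3. The same unigene reached 1203 FPKM in 1 mature and 1558 FPKM in 1 immature stomach library and was listed at 0 in the others. Such jumps were rare, since 2 of 2485 unigenes that reached 50 FPKM in a mature library were listed at 0 in another mature library, and none of 2342 in the immature libraries. In stomach it was 10 of 2303 in mature and 3 of 2142 in immature libraries. These counts need a listed 0. Each intestine library also held 11 to 18 unigenes above 0 but under 1e-06 FPKM, which count as above 0 here. The highest unigene of the immature set was at 111, 151 and 138 FPKM in DUI_1 to DUI_3, with 571 to 637 FPKM in immature stomach and 0 in all mature libraries of both tissues.

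Many unigenes of the immature set had the same on and off state in stomach, which was not used to choose them. Both tissues came from the same animals per the methods, so the stomach adds no further individuals. Of its 61 members, 48 (78.7%) were listed at 0 in all 3 mature stomach libraries, 40 (65.6%) were above 0 in all 3 immature stomach libraries, and 31 (50.8%) did both. Over the 14592 unigenes with an intestine mean of 5 to 50 FPKM, 8.23% were at 0 and 73.2% above 0 throughout mature stomach, and 1.47% were at 0 and 93.8% above 0 throughout immature stomach. In the mature set the 2 stages of stomach were closer. Of its 124 members, 29 (23.4%) were above 0 in all 3 mature stomach libraries and 43 (34.7%) in all 3 immature stomach libraries, 48 (38.7%) and 45 (36.3%) were at 0 in all 3, and 1 was above 0 throughout mature and at 0 throughout immature stomach. In 35 of the 124 and 7 of the 61, every stomach library was at 0.

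**Figure D5:**
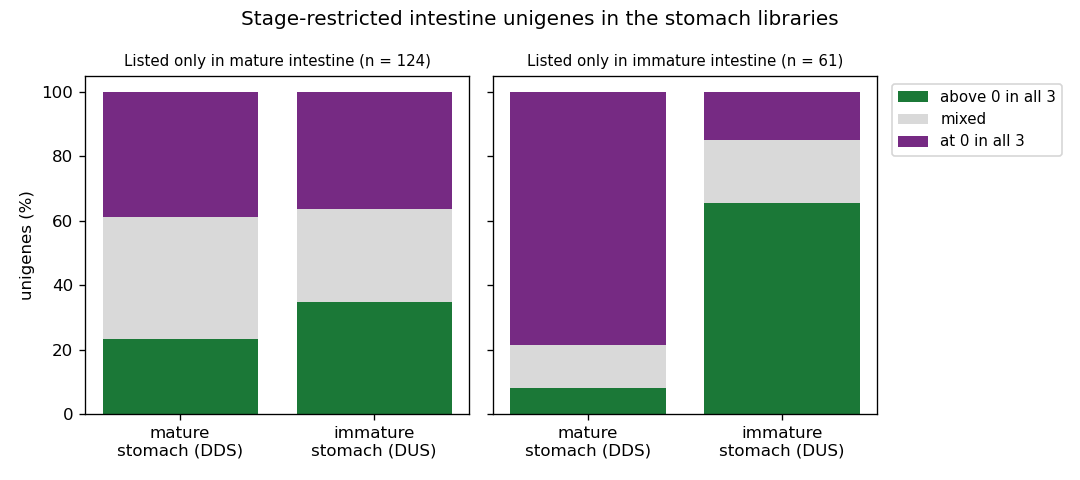
Percentage of unigenes (vertical axis) above 0 in all 3 libraries, mixed, or at 0 in all 3 libraries of mature stomach (DDS) and immature stomach (DUS), for the 124 unigenes listed only in mature intestine (left) and the 61 listed only in immature intestine (right). The right panel has 78.7% at 0 throughout mature stomach and 65.6% above 0 throughout immature stomach; the left panel has 38.7% and 34.7%.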

How the data were processed

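RNA from DF intestine was sequenced as 3 mature and 3 immature libraries, and the authors deposited 1 table of FPKM per library. According to the methods, Trinity assembled pooled DF reads into unigenes. No aligner or program that gave the FPKM is named in the sources used here. Medium form tables rest on another assembly and were not used.

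FPKM are not counts, so log2(FPKM + 0.5) was fitted with limma 3.58.1 in R 4.3.3 (trend = TRUE, 2-sided) over unigenes averaging 0.5 FPKM or more. Fold changes are on this scale, which understates low unigenes. Called unigenes had an adjusted p under 0.05 and an absolute log2 fold change of at least 1. Descriptive ratios add 0.5 FPKM to each group mean of 3 libraries. Tissue by stage was a limma interaction over intestine and stomach. Relative depth came from whole-read steps at low FPKM (0.02 to 2). The value of a single read came from the immature stomach libraries, whose values had to lie within 2.5% of whole reads. It had no upper limit, so an abundant unigene with closely matching stomach values could be given too large a read value. Read noise used this value. The methods give 3 individuals per group. The fit was tested on simulated data. Named unigenes were, at a mean of at least 50 FPKM and above 0 in all 6 libraries without overlap, the 2 largest and 2 smallest log2 fold changes with adjusted p under 0.05. Members, limits and lists were chosen with earlier results of these data known. Alternatives were another pseudocount, filter, normalization, merging, trend, block and omission of each library. The planned use of Trinity components could not be applied, because DF unigenes carry cluster numbers.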

Additional observations from a re-analysis of the deposited data

Results flagged for a closer look

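For 3 of the 4 unigenes given by library, the mature-to-immature difference in intestine differed from that in stomach by the interaction test of limma. The difference of the log2 fold changes was 7.60 for CL37212Contig1, 7.19 for CL39669Contig1 and −4.17 for CL11102Contig1. These unigenes were chosen by their intestine fold changes, which enter the test again, so the values describe them and are no separate evidence. At a mean of 50 FPKM or more over the 12 libraries, 353 unigenes passed the same test. Over all levels 6139 of 47743 (12.9%) passed. No share of those tested at 50 FPKM or more is given, so the 353 cannot be set against this.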

How the results depend on the processing

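The total of 4378 called unigenes (2151 higher, 2227 lower) became 1901 (1111 and 790) at a mean of at least 5 FPKM, which tests fewer unigenes, and 8962 (4274 and 4688) with unadjusted p. It became 6685 with 6 separate libraries (3547 lower) and 6773 in a fit on all 12 libraries (3647 lower). Without single libraries it ran between 1630 and 5419, with 895 to 3981 higher and 735 to 2328 lower. Without DDI_3 it was 3981 higher and 1438 lower. At 50 FPKM or more, 171 to 205 were called without single libraries, with 88 to 128 higher and 58 to 88 lower, and the other settings gave 194 to 225. Median-of-ratios scaling gave 163 higher and 55 lower at this level, and moved the median log2 fold change of all unigenes by 0.08. Unigenes listed only in mature and only in immature intestine numbered 533 and 313 at 5 FPKM and 4 and 4 at 50 FPKM, with 138 to 159 and 66 to 82 without single libraries. The interaction count of 6139 became 4091 (2995 larger in intestine) after quantile normalization, and ran between 4887 and 6832 without single libraries. CL592Contig1 missed the threshold without any one immature library, each time with fewer samples in the fit. The other named unigenes kept direction and call in all settings run. Called cluster sums (34) ran between 16 and 37 without single libraries.

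With the replicate number as a block, 3722 unigenes were called (1988 higher, 1734 lower), 222 of them at 50 FPKM or more, and the interaction called 6533. Both tissues came from the same animals per the methods, but whether a number marks 1 animal across tissues is not stated. The numbers did not pair mature with immature intestine libraries, since same-numbered ones correlated in their deviations at 0.0092, −0.019 and 0.0149 over 10418 unigenes. For same-numbered intestine and stomach libraries the correlations ran between −0.0113 and 0.0947 in mature and between −0.0089 and 0.0169 in immature animals. Different-numbered ones ran between −0.0959 and 0.0444 in mature and between −0.0179 and 0.017 in immature animals. Whether the numbers pair the tissues was not tested further. Depth may limit the class under 2 FPKM, where values rest on few reads if the estimated read value holds.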

Other observations

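Unigenes that share a cluster number in the DF assembly formed 466 clusters of at least 2 tested contigs, 968 unigenes in all (a grouping chosen after the data were seen). In 232 clusters at least 1 contig differed at least 2-fold between mature and immature intestine by size. Of all tested unigenes, 37.5% did so, and how often groups of unrelated contigs would give the cluster counts here was not tested. In 133 of the 232 clusters the summed FPKM differed by less than 2-fold. In 19 clusters contigs differed at least 2-fold in opposite directions, and in 17 of the 19 the sum differed by less than 2-fold. By limma with Benjamini-Hochberg adjustment, 74 clusters held a called contig, 2 held contigs called in both directions, and 34 sums (7.30%) were called, near the 8.00% of all unigenes tested.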
